A study of Mus musculus with 26 samples.

Results

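Monocytes and polymorphonuclear cells (PMN, mostly neutrophils) sorted from the spleen of vehicle-treated KPC mice were compared across the transcriptome. The members are the libraries whose labels give vehicle-treated sorted cells: 3 monocyte libraries (also marked high) and 3 PMN libraries (also marked low), 6 of the 26 libraries of the series. Every animal carried a tumour; KPC is a genetically engineered strain in which mutant alleles switched on by Cre recombinase in the pancreas give pancreatic ductal adenocarcinoma. The remaining sorted-cell groups, 4 monocyte and 4 PMN libraries from KPC mice given the PI3K p110δ inhibitor GS9820 for 14 days, entered the fit to share its estimate of the spread and are used for a side-by-side reading at the end. No treatment day is given for vehicle mice. Age, the number of animals per library and the antibodies of the sort are not given in the sources used here. Tumour-free mice are not compared here, so nothing below separates the effect of a tumour from the ordinary difference of the cell types.

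Monocytes and neutrophils both descend from granulocyte-monocyte progenitors in the marrow and, in tumour-bearing mice, also in the spleen. A neutrophil loads its granules in sequence: azurophil proteases at the promyelocyte stage, specific granule proteins at the myelocyte stage, gelatinase granules and secretory vesicles last, while division stops and the ribosome content falls. Classical mouse monocytes leave the marrow through the chemokine receptor Ccr2, whereas neutrophils depend on the cytokine receptor Csf3r and follow ligands of Cxcr2. Spleen populations of both kinds that accumulate with tumours are studied as myeloid-derived suppressor cells, with arginase, prostaglandin and checkpoint ligand genes among their known effectors.

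Values are deposited log2 expression values, and a difference is the monocyte mean minus the PMN mean on that log2 scale, with its standard error (SE); positive is higher in monocytes. Depth per library is unknown because the files hold no counts. All 14 sorted-cell libraries share nearly the same distribution of values, so the most abundant genes repeat the same top values. No pair of libraries was identical (0 of 91 pairs). Correlations across genes were 0.934 to 0.953 between PMN libraries, 0.914 to 0.963 between monocyte libraries and 0.797 to 0.872 between a PMN and a monocyte library. Monocyte library 3 stood apart from the other monocyte libraries: its mean over the 25 mature neutrophil genes was 6.41, against 8.73 and 8.47, and its mean over 26 mitotic genes was 6.14, against 7.36 and 7.80. PMN library 2 was low in NK cell genes (list mean 0.65, against 4.69 and 5.75) and high in erythroid genes (7.34, against 5.19 and 4.66). The labels do not say that libraries came from separate mice, so p-values measure only the spread between these samples.

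Of 13968 genes tested with limma, 8390 (60.1%) passed an adjusted p of 0.05. Of these 4586 (32.8% of all genes) were higher in monocytes and 3804 (27.2%) were higher in PMN. The median difference over all genes was 0.07, and the middle of the absolute differences among called genes was 1.17, with quartiles at 0.75 and 1.77. Against a 2-fold margin (limma treat, which asks whether a difference exceeds 2-fold) 1696 genes (12.1%) passed, 795 (5.69%) higher in monocytes and 901 (6.45%) higher in PMN. Groups of 3 did not overlap for 8305 genes (59.5%). A gene list is read below against these shares. Lists near the PMN share include those of glycolysis, eicosanoids, class II, iron, dendritic cells and monocyte transcription factors. The S100 and annexin list was near the monocyte share.

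**Figure D1:**
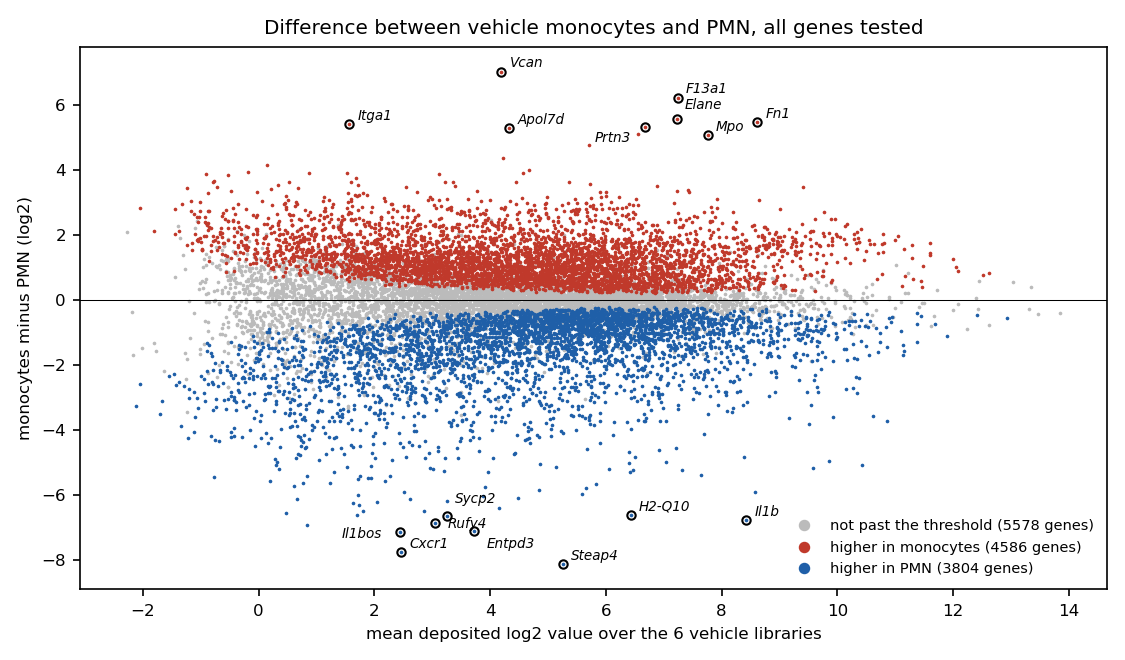
Difference between monocytes and PMN (log2, vertical) against the mean deposited log2 value over the 6 vehicle libraries (horizontal), 1 point per gene tested; red genes were higher in monocytes, blue genes higher in PMN and grey genes not past the threshold. The 8 largest differences in each direction are circled and named, with Vcan at 7.02 and Steap4 at -8.13 at the ends.

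The defining markers followed the labels, apart from Csf1r, S100a8 and S100a9. Vcan, the matrix proteoglycan versican, read -1.23, 3.33 and -0.05 in PMN libraries 1 to 3 and 7.41, 7.34 and 8.37 in monocyte libraries 1 to 3. Every monocyte library was above every PMN library, by a difference of 7.02 ± 0.98 (SE; limma adjusted p = 6.39e-05; n = 3 a group). Ccr2 read 7.10, 9.09 and 6.85 in PMN and 10.92, 10.54 and 11.99 in monocytes, again without overlap (3.47 ± 0.50, limma adjusted p = 8.28e-05). F13a1, coagulation factor XIII A, stood at 3.52, 4.65 and 4.21 in PMN and at 10.42, 9.34 and 11.29 in monocytes, a difference of 6.22 or 74.5-fold (limma adjusted p = 3.54e-06). Ly6c2, the gene of the Ly6C antigen, was higher in monocytes by only 1.49 ± 0.27 (limma adjusted p = 0.000486); its near-identical neighbour Ly6c1 differed by 1.57, and reads of the pair may have been split between them. Csf1r, the receptor for monocyte growth factor, read 8.96, 8.85 and 8.63 in PMN against 9.42, 8.67 and 10.62 in monocytes. Those ranges overlapped and the difference of 0.76 ± 0.41 did not pass (limma adjusted p = 0.126; 1.21 and 0.0163 without monocyte library 2).

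On the PMN side, Cxcr2 read 11.96, 12.15 and 12.35 in PMN and 8.22, 7.87 and 4.93 in monocytes (-5.15 ± 0.72, limma adjusted p = 6.29e-05). Monocyte library 3 was the lowest, and all monocyte libraries were below all PMN libraries. Csf3r, the receptor for granulocyte colony-stimulating factor, was tighter: 12.45, 12.76 and 12.92 in PMN against 8.90, 8.78 and 9.26 in monocytes (-3.73 ± 0.19, limma adjusted p = 5.92e-08). Mmp8, neutrophil collagenase, differed by -2.74 ± 0.52 (limma adjusted p = 0.000674). Ly6g, the neutrophil antigen used in most sorts, read 9.33, 9.28 and 9.74 in PMN but 8.39, 8.26 and 4.18 in monocytes. Its difference of -2.51 ± 0.90 passed (limma adjusted p = 0.0285), and the call was lost without PMN library 1 (-2.56, adjusted p = 0.0551), PMN library 2 (-2.59, 0.0504), PMN library 3 (-2.36, 0.0747) or monocyte library 3 (-1.12, 0.0794). The calprotectin subunits S100a8 and S100a9 overlapped between groups and did not pass: S100a8 was at 14.05 in 5 of the 6 libraries and at 12.83 in monocyte library 3, and S100a9 lay between 12.62 and 13.68 in all 6. S100a8 and S100a9 were thus near the top of the scale in the monocyte libraries as well, whereas Cxcr2 and Ly6g were well below it there. As 14.05 is the highest value in the sorted-cell libraries, a difference in S100a8 between libraries at that value could not show. The part of neutrophil transcripts in the comparisons below was not tested.

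**Figure D2:**
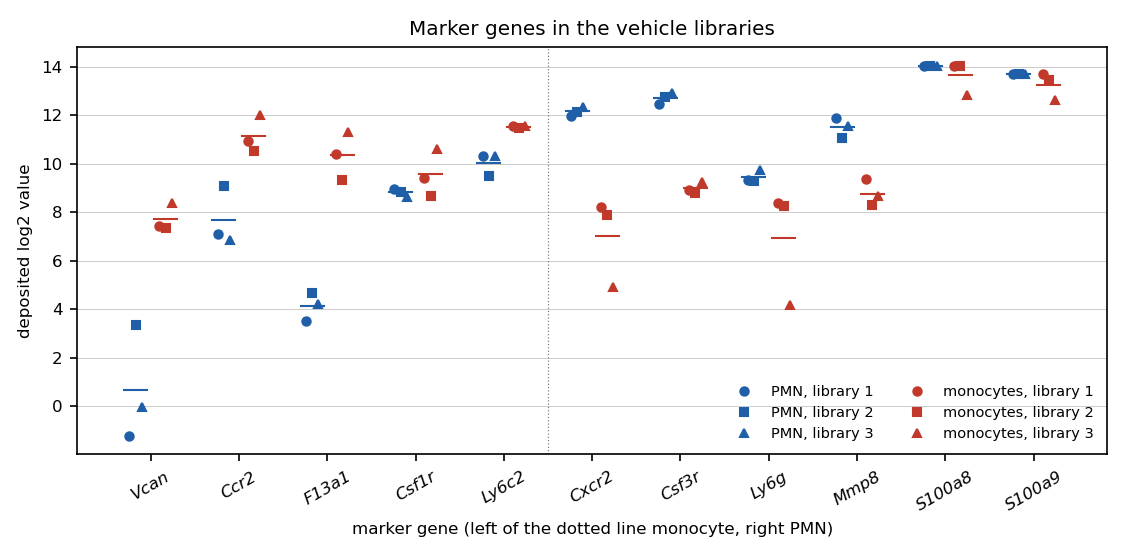
Deposited log2 values of 11 marker genes in the 3 PMN (blue) and 3 monocyte (red) vehicle libraries; symbols mark library 1, 2 and 3 and bars the group mean. Vcan, Ccr2, F13a1, Cxcr2 and Csf3r separate without overlap, while Csf1r, S100a8 and S100a9 overlap and monocyte library 3 sits lowest for Ly6g at 4.18.

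Of 25 genes of classical monocyte identity, 18 were higher in monocytes and 1 in PMN, with a median difference of 1.64 against 0.07 over all genes; 9 and 1 passed the 2-fold margin. Fn1, fibronectin, read 5.49, 7.79 and 4.33 in PMN and 11.77, 10.36 and 11.90 in monocytes, 44.3-fold apart (limma adjusted p = 3.46e-05). S100a4, a calcium-binding protein of motile cells, differed by 3.07 and the membrane gene Ms4a4c by 3.0. The exception was Cd14, the lipopolysaccharide co-receptor long used as a monocyte antigen in human blood: it read 10.04, 10.62 and 8.38 in PMN and 7.22, 6.94 and 6.41 in monocytes (-2.82 ± 0.44, limma adjusted p = 0.000141), with PMN higher in every library. Lyz2, the lysozyme gene, and Mpeg1, a pore-forming protein, did not pass (0.39 and 0.84; Mpeg1 passed without PMN library 3, at 1.13 with adjusted p = 0.0432, and without monocyte library 2, at 1.29 with 0.0103). The 16 genes of nonclassical, patrolling monocytes were split, 3 higher in monocytes and 4 in PMN (median -0.18; 0.03 without PMN library 1 and 0.46 without monocyte library 2). The number higher in monocytes was 1 without PMN library 2, PMN library 3, monocyte library 1 or monocyte library 3. Itgax, the integrin CD11c and a member of that list, read 8.42, 7.75 and 8.11 in PMN against 3.98, 3.28 and 3.87 in monocytes (-4.39 ± 0.41, limma adjusted p = 3.18e-06).

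Of 25 mature neutrophil genes, 18 were higher in PMN and 0 in monocytes (median -2.72; 11 past the 2-fold margin). Without monocyte library 3 the median was -1.71, with 17 higher in PMN and 1 in monocytes. Il1b, the inflammatory cytokine interleukin-1β, read 11.34, 12.12 and 11.96 in PMN and 4.94, 4.35 and 5.84 in monocytes. This gap of 108-fold (-6.76 ± 0.61, limma adjusted p = 2.68e-06) was wider in monocyte libraries 1 and 2 than in library 3. Other members followed library 3 closely. Mmp9, gelatinase B, read 12.35, 12.31 and 12.31 in PMN but 9.55, 8.51 and 4.04 in monocytes (-4.96 ± 1.07). Retnlg, a secreted resistin-like protein, read 12.92, 13.14 and 12.83 against 10, 8.69 and 5.01 (-5.06 ± 1.05). Both kept PMN above monocytes in every library, with limma adjusted p of 0.00152 and 0.0012. Bulk libraries do not tell fewer cells of a type from less RNA per cell.

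The largest single differences went beyond the known markers. On the monocyte side the 15 largest held 4 azurophil proteins (Elane, Prtn3, Mpo and Ctsg, below) beside Vcan, F13a1 and Fn1. Itga1, the collagen-binding integrin α1, read -1.80, -1.20 and -0.43 in PMN and 3.60, 3.52 and 5.66 in monocytes (5.40 ± 0.62, limma adjusted p = 1.38e-05). Plcb1, a phospholipase C that acts downstream of G protein-coupled receptors, differed by 4.36, and Met, the receptor for hepatocyte growth factor, by 3.90. Ptpru, a receptor tyrosine phosphatase, differed by 4.16, Arhgef37 by 4.00, Rspo1, a secreted enhancer of Wnt signalling, by 3.93 and the adhesion adaptor Tln2 by 3.90. All of these separated the groups without overlap. Apol7d, at 5.28, is annotated on the opposite strand with 364 bases inside Fn1, and reads of the 2 genes cannot be told apart here.

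On the PMN side Steap4, a metalloreductase of iron and copper, came first: 8.52, 9.42 and 10.02 in PMN against 0.59, 1.64 and 1.35 in monocytes, a difference of -8.13 ± 0.52 or 280.0-fold (limma adjusted p = 2.42e-07). Cxcr1, a chemokine receptor near Cxcr2 on chromosome 1, read 5.39, 6.08 and 7.56 against -2.15, -1.12 and -0.97 (-7.76 ± 0.61, limma adjusted p = 1.14e-06). Metabolic and surface enzymes were among the rest. Entpd3, an ectonucleotidase, differed by -7.11, Arg2, the mitochondrial arginase, by -6.10, Acod1, which makes itaconate, by -6.18 and the sialyltransferase St3gal6 by -6.04. Hcar2, a receptor for niacin and ketone bodies, differed by -6.41 and Prok2, the chemokine-like prokineticin 2, by -6.11. Ifitm1, an interferon-inducible membrane protein, read 10.99, 12.02 and 11.57 in PMN and 5.26, 6.52 and 5.07 in monocytes (-5.91). Genes with other best-known settings also appeared: Sycp2, a meiotic chromosome protein, at -6.64, the centrosomal Spatc1 at -6.50 and Rufy4, an autophagy-related gene, at -6.87. H2-Q10, a class I gene with close relatives among which reads may be split, stood at -6.60, and Il1bos (-7.12) lies opposite Il1b with 1243 shared bases, so its reads cannot be told from those of Il1b.

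Granule genes divided by the stage at which neutrophils make them. Azurophil genes were higher in monocytes: 7 of 12 passed and 0 went the other way (median 2.39; 6 past the 2-fold margin). Elane, neutrophil elastase, read 2.80, 5.45 and 5.07 in PMN and 9.65, 11.21 and 9.13 in monocytes (5.56 ± 0.89, 47.0-fold, limma adjusted p = 0.000185). Prtn3, proteinase 3, read 2.52, 4.99 and 4.53 against 8.99, 10.55 and 8.47 (5.32 ± 0.79, limma adjusted p = 0.000109). Mpo, myeloperoxidase, read 3.74, 6.33 and 5.58 against 10.08, 11.29 and 9.52 (5.08 ± 0.73, limma adjusted p = 8.23e-05). In all 3 genes monocyte library 2 was highest, PMN library 1 lowest, and the groups lay at least 3 log2 units apart at their nearest libraries. Ctsg, cathepsin G, Ms4a3, a marker of granulocyte-monocyte progenitors, and Fcnb, ficolin B, differed by 4.76, 3.20 and 3.11. Antisense gene models overlap Mpo (Gm11505, 5361 bases) and Vcan (Gm4117, 3050 bases), and Plppr3 overlaps Prtn3 by 159 bases, so some reads may be shared. Hexa, a lysosomal hexosaminidase, differed by 0.90, while Cd63, Serpinb1a, Prss57 and Nkg7 did not pass. Without monocyte library 3, 11 of the 12 passed and the median was 3.01; without PMN library 2 the median was 1.78 and without monocyte library 2 it was 1.89, with 7 of 12 in both. The genes gained without monocyte library 3 included Cd63 at 1.16 (adjusted p = 0.00405), Serpinb1a at 1.35 (0.0153), Prss57 at 1.48 (0.00401) and Nkg7 at 2.24 (0.0244); Nkg7 also passed without PMN library 3 (2.47, 0.00987).

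Elane and Prtn3 lie side by side on chromosome 10, and Mpo lies on chromosome 11; their start-site windows (250 bases before and 50 after the start) are shown because these 3 genes were high together in the same libraries. The windows are RefSeq sequence of build GRCm38.p6, all on the plus strand, at chr10:79886062-79886361 (Elane), chr10:79879417-79879716 (Prtn3) and chr11:87793534-87793833 (Mpo). Capitals mark the PU.1-type letters GAGGAAGT, searched on both strands.
Elane: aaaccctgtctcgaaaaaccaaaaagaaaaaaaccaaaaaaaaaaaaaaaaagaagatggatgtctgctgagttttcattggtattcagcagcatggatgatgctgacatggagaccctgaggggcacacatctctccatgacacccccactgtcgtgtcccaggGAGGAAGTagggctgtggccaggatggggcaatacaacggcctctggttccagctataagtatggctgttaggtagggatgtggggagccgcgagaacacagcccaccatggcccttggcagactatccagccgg
Prtn3: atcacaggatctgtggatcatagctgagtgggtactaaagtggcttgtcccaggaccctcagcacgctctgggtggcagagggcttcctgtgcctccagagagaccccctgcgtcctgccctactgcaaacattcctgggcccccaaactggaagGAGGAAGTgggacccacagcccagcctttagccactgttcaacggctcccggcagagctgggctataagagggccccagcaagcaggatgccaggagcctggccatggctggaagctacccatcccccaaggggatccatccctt
Mpo: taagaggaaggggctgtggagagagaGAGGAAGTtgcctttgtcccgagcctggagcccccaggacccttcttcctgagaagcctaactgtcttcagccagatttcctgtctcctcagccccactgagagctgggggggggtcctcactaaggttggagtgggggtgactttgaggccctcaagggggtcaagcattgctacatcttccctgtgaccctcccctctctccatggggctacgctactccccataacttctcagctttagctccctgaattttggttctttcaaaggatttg

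Each window held the 8 letters once, on the plus strand, beginning at position -85 in Elane, -95 in Prtn3 and -224 in Mpo, counted back from the start with -1 as the last base before it. The window of Ctsg, an azurophil gene of the same direction, held none. Among the 12037 windows of the 9465 tested genes matched by symbol, 3.55% held the letters; the share was 3.24% in windows of genes higher in monocytes and 4.32% in those of genes higher in PMN. Past the 2-fold margin the shares were 2.30% and 4.26%. The share was thus lower among monocyte-high windows than among all, and a match is a description of letters, not of a bound site.

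**Figure D3:**
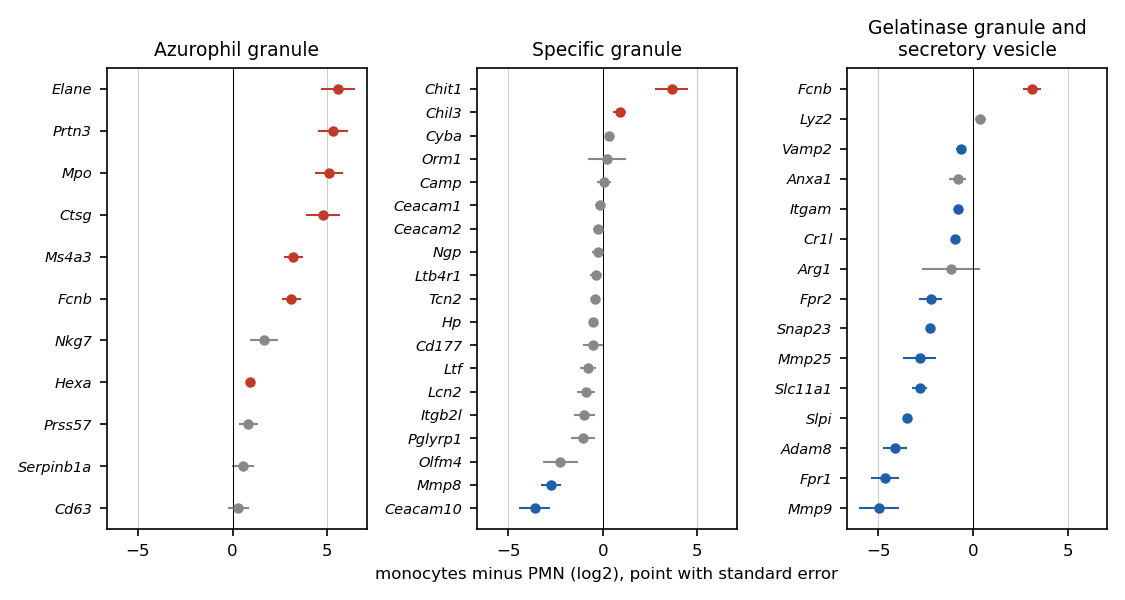
Difference between monocytes and PMN (log2, point with its standard error) for tested genes of 3 granule lists (11 of the 12 azurophil genes are drawn); red points were higher in monocytes, blue points higher in PMN and grey points not past the threshold. Elane, Prtn3, Mpo and Ctsg lie above 4 in the azurophil panel, most specific granule genes lie near 0, and Mmp9 and Fpr1 lie beyond -4 at the PMN end of the gelatinase and secretory list.

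Specific granule genes hardly separated the cells, with 2 of 19 higher in each direction (median -0.42). Camp, the cathelicidin precursor, read 12.62, 11.85 and 12.62 in PMN and 12.92, 13.02 and 11.34 in monocytes, so the ranges overlapped (0.06). Ltf, lactoferrin, read 13.02, 12.83 and 13.14 in PMN and 12.76, 12.92 and 10.98 in monocytes (-0.78; -1.13 with adjusted p = 0.0429 without monocyte library 2), again with only monocyte library 3 well below. Ngp, neutrophilic granule protein, differed by -0.27. The genes that passed were Mmp8 and Ceacam10 (-3.59), higher in PMN, and Chit1, a chitinase (3.63), and Chil3 (0.90), higher in monocytes. The call of Chil3 was lost without PMN library 2 (0.62, adjusted p = 0.146), monocyte library 1 (0.66, 0.138) or monocyte library 2 (0.92, 0.0642). The number higher in PMN went from 2 to 6 without monocyte library 2 and to 4 without monocyte library 1, and the number higher in monocytes was 4 without monocyte library 3 and 1 without PMN library 2, monocyte library 1 or monocyte library 2.

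Gelatinase and secretory vesicle genes, the last to be made, were higher in PMN for 11 of 15 and in monocytes for 1 (median -2.24; -1.47 without monocyte library 3, with the same 11 and 1 counts). The gene higher in monocytes was Fcnb, which is also in the azurophil list. Slpi, a secreted inhibitor of leukocyte proteases, was the most even: 9.34, 9.57 and 9.61 in PMN against 6.49, 5.70 and 5.85 in monocytes (-3.49 ± 0.19, limma adjusted p = 1.05e-07). Adam8, a membrane metalloproteinase, differed by -4.13 and Fpr1, a receptor for formylated bacterial peptides, by -4.67. Slc11a1, the phagosomal metal transporter Nramp1, differed by -2.83.

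Windows of the gene with the largest PMN excess, Steap4, and of the specific granule collagenase Mmp8 are shown for comparison, from the same RefSeq table, plus strand, at chr5:7960222-7960521 and chr9:7558179-7558478. Capitals mark the C/EBP-type letters TTGCNNAA and, near the left end of Mmp8, the PU.1-type letters on the minus strand.
Steap4: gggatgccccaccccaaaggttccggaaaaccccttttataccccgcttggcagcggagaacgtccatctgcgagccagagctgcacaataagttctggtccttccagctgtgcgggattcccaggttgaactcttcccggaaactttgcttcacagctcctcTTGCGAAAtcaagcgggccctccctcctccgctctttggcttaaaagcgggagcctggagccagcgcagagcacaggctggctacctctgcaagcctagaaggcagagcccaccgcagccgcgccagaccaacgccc
Mmp8: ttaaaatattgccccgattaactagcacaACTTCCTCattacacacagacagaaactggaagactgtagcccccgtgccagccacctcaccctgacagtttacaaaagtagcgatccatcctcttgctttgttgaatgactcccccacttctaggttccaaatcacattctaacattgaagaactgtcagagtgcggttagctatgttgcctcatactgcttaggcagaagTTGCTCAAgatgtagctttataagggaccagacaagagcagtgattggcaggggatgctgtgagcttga

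The C/EBP-type letters began at -87 in Steap4 and at -19 in Mmp8. Among other PMN-high genes looked up, the letters were in 1 Ly6g window but not in those of Cxcr2, Csf3r, Cxcr1 or Il1b. They were held by 8.83% of all 12037 windows, 8.86% of windows of genes higher in monocytes and 8.67% of those of genes higher in PMN; past the 2-fold margin the shares were 8.22% and 10.6%. IRF-type letters, GAAA and GAAA with any 2 bases between, were held by 3.33% of all windows, 3.37% and 3.53% of the monocyte and PMN sets, and 4.61% and 5.08% past the 2-fold margin. The motifs do not overlap each other in the windows printed.

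Of 26 S phase genes 25 were higher in monocytes and 0 in PMN (median 2.60; 20 past the 2-fold margin), and of 26 mitotic genes 25 and 0 (median 2.75; 21 past it). Rrm2, the ribonucleotide reductase subunit that limits nucleotide supply, read 5.45, 5.48 and 5.73 in PMN and 9.14, 9.77 and 7.81 in monocytes (3.35 ± 0.38, limma adjusted p = 1.4e-05). Top2a, the topoisomerase of dividing cells, read 5.88, 5.34 and 6.08 against 9.31, 9.67 and 8.28 (3.32 ± 0.33, limma adjusted p = 4.77e-06). Monocyte library 3 was the lowest monocyte library for both genes but still above every PMN library. Aurkb, Kif11 and Ccna2, mitotic kinase, spindle motor and cyclin, differed by 3.31, 3.16 and 2.99. The replication helicase stood out as a family: 9 of 10 genes whose symbols begin with Mcm were higher in monocytes, among them Mcm5 (3.12), Mcm2 (2.91), Mcm6 (2.90) and Mcm3 (2.82). The members not past the threshold were Gins2 (-0.47), a partner of that helicase, and the spindle motor Kif23 (0.32); Gins2 was higher in PMN without PMN library 2 (-0.68, adjusted p = 0.0248) or monocyte library 2 (-0.67, 0.0266).

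All 40 cytoplasmic ribosomal protein genes were higher in monocytes (median 1.85; 36 past the 2-fold margin). Rpl3 read 8.46, 8.57 and 7.62 in PMN and 10.46, 10.44 and 10.76 in monocytes (2.34 ± 0.23, limma adjusted p = 4.49e-06). The list mean was 7.93 to 8.50 in PMN and 10.02 to 10.25 in monocytes, with no overlap and with monocyte library 3 highest. By symbol stem, 88 of 97 Rpl and 69 of 80 Rps genes were higher in monocytes, but 50 of those 97 and 40 of those 80 are pseudogenes whose reads can come from the parent genes. Ribosome assembly genes were higher in monocytes too, 20 of 24 (median 0.93), with the nucleolar proteins Npm1 and Fbl at 1.88 and 1.44; Polr1a, the large subunit of RNA polymerase I, was the exception at -1.45. Mitochondrial ribosome genes (43 of 50 Mrpl), proteasome subunits (9 of 10 Psmb) and splicing factors (8 of 10 Srsf) were the other stems most shifted to monocytes among 146 with at least 10 tested genes.

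Respiration moved the same way in smaller steps. Of 32 oxidative phosphorylation genes encoded in the nucleus 30 were higher in monocytes and 0 in PMN (median 1.02), but only 5 passed the 2-fold margin. Cycs, cytochrome c, read 6.17, 6.13 and 5.84 in PMN against 7.61, 7.80 and 7.98 in monocytes (1.75 ± 0.16, limma adjusted p = 2.4e-06). The 13 genes of the mitochondrial genome gave 11 higher in monocytes (median 1.44), from mt-Nd6 at 2.08 to mt-Co3 at 0.78. The call of mt-Co3 was lost without PMN library 3 (0.61, adjusted p = 0.0696) or monocyte library 3 (0.60, 0.0657). The genes mt-Co1 (0.54) and mt-Co2 (0.58) did not pass, mt-Co2 passing without PMN library 2 (0.69, adjusted p = 0.0478) or monocyte library 2 (0.73, 0.0354). Of 22 citric acid cycle genes 19 were higher in monocytes (median 0.82), with Idh2 at 1.95 and Idh3a at 1.71. Glycolysis did not follow: 3 of 23 were higher in monocytes and 6 in PMN (median -0.24; 5 in monocytes without monocyte library 3), and Gapdh (-0.07) and Pkm (-0.25) did not pass. The genes higher in PMN were the glucose carriers Slc2a3 (-2.80) and Slc2a1 (-2.65), the lactate exporter Slc16a3 (-1.91), the aldolase Aldoc (-1.41) and the bifunctional regulatory enzymes Pfkfb4 (-1.38) and Pfkfb3 (-0.74). The call of Aldoc was lost with the 6 vehicle libraries alone (adjusted p = 0.0522) and with array weights (-1.29, 0.0801). Ldhb, the lactate dehydrogenase chain of oxidative tissues, was higher in monocytes (2.21 ± 0.21). Glycogen phosphorylase Pygl was higher in PMN (-1.51), within a list of glycogen and pentose phosphate genes that was otherwise divided, 4 to 5 of 15. That list gave 2 higher in monocytes without PMN library 2 or monocyte library 2, and 3 higher in PMN without PMN library 3 or monocyte library 3. Fatty acid oxidation gave 10 of 20 higher in monocytes and 5 in PMN (median 0.53; 1 in PMN without PMN library 3 and 2 without monocyte library 2), with the electron carrier subunits Etfb (1.54) and Etfa (1.34) in monocytes and the lipid receptor Cd36 (-2.49) in PMN. Cholesterol synthesis was even, 4 of 20 in each direction (median 0.03), with Sc5d, a late desaturase, at -1.87; the monocyte count was 1 without PMN library 1, 2 without PMN library 3 and 0 without monocyte library 2.

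**Figure D4:**
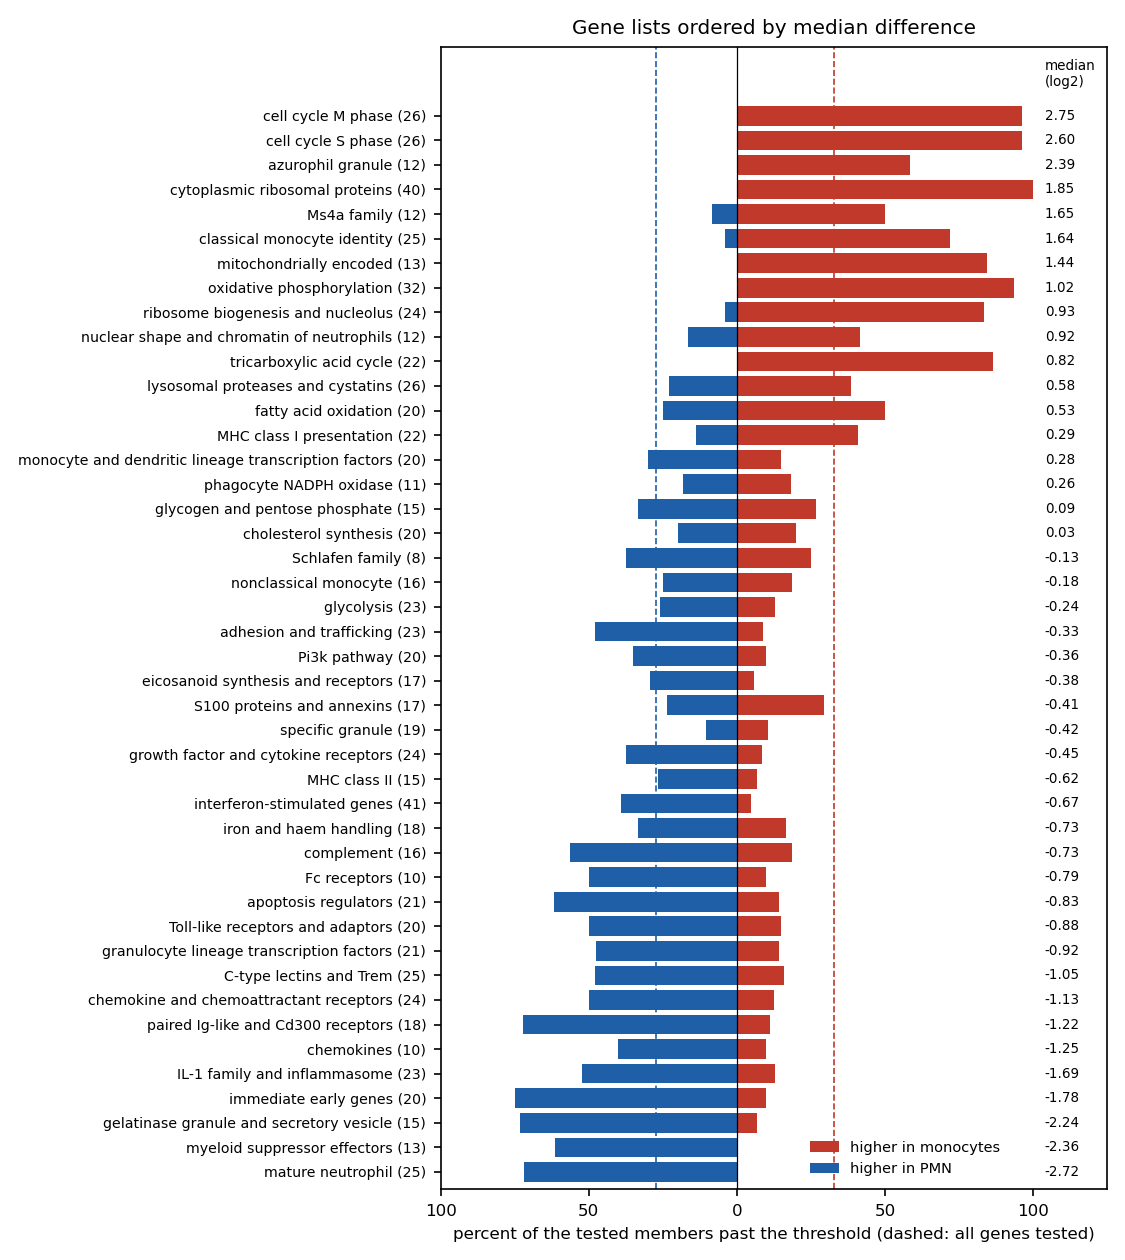
Percent of the tested members of 44 gene lists higher in monocytes (red, right) or in PMN (blue, left), ordered by the median difference printed at the right; the number tested follows each name and dashed lines give the shares over all genes, 32.8% and 27.2%. Cell cycle, azurophil and ribosomal lists end the monocyte side, mature neutrophil, suppressor effector and gelatinase lists the PMN side.

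Among 24 cytokine and growth factor receptors 9 were higher in PMN and 2 in monocytes (median -0.45; 5 in monocytes without monocyte library 2). After Csf3r came Il4ra (-1.72), the receptor chain for interleukins 4 and 13, and Il17ra (-1.10). On the monocyte side Il6st, the gp130 signal chain of the interleukin 6 family, read 4.13, 4.77 and 3.79 in PMN and 6.21, 5.80 and 7.89 in monocytes (2.41 ± 0.45, limma adjusted p = 0.000596), and Il3ra differed by 1.47. Among 24 chemoattractant receptors 12 were higher in PMN and 3 in monocytes (median -1.13; 9 and 1 past the 2-fold margin; 1 in monocytes without monocyte library 3). C5ar1 and C5ar2, the receptors for complement fragment C5a, differed by -3.13 and -3.84. Ccr2 and Gpr183, a receptor for oxysterols, were higher in monocytes (Gpr183 1.34; 0.96 with adjusted p = 0.0528 without monocyte library 3). Ltb4r1, the leukotriene B4 receptor, read 9.34, 9.71 and 9.11 against 9.38, 9.50 and 8.13 and did not pass (-0.38).

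Chemokine genes gave 4 of 10 higher in PMN and 1 in monocytes. Cxcl2, which attracts neutrophils, read 3.43, 4.51 and 3.62 in PMN and -1.23, -0.72 and -0.74 in monocytes (-4.75 ± 0.86, limma adjusted p = 0.000446). Ccl3, Ccl4 and Ccl6 were also higher in PMN (-2.13, -3.13 and -1.88) and Ccl9 in monocytes (2.41). For rolling and firm adhesion, 11 of 23 genes were higher in PMN and 2 in monocytes (median -0.33). Selplg, the ligand of P-selectin, read 11.39, 11.49 and 11.63 in PMN and 9.01, 8.70 and 9.68 in monocytes (-2.37 ± 0.21, limma adjusted p = 2.24e-06); the hyaluronan receptor Cd44 differed by -1.61. Cd93 (2.95), a lectin-like receptor, and the gut-homing integrin chain Itgb7 (1.85) were higher in monocytes. Itga4, the partner of that chain, overlapped between groups (0.02).

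Of 20 Toll-like receptor and adaptor genes 10 were higher in PMN and 3 in monocytes (median -0.88; 5 in monocytes without monocyte library 2 and 0 without PMN library 3 or monocyte library 3). Tlr4, the lipopolysaccharide receptor, read 6.70, 7.65 and 6.70 in PMN against 4.92, 5.28 and 4.76 in monocytes (-2.03 ± 0.26, limma adjusted p = 3.64e-05), the direction of its co-receptor Cd14. Tlr5, which senses flagellin, differed by -2.45 and Tlr6 by -2.30. Of 25 C-type lectin and Trem genes 12 were higher in PMN and 4 in monocytes (median -1.05). Clec4d, a receptor for mycobacterial glycolipid, read 8.83, 8.96 and 9.44 against 4.20, 2.83 and 4.55 (-5.22 ± 0.39, limma adjusted p = 8.46e-07); its neighbour Clec4e, Mincle, differed by -2.64 and Trem1, an amplifier of inflammation, by -3.73. Trem2, a lipid receptor of macrophages, went the other way (3.46 ± 0.78), from -0.51, 2.48 and 0.49 in PMN to 3.63, 4.06 and 5.15 in monocytes. The monocyte calls of that list numbered 2 without PMN library 2 or PMN library 3 and 1 without monocyte library 1.

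Paired immunoglobulin-like and Cd300 receptors, which tune activation, gave 13 of 18 higher in PMN and 2 in monocytes (median -1.22; 1 in monocytes without PMN library 2, PMN library 3 or monocyte library 3). Cd300lf, an inhibitory receptor, read 11.06, 11.39 and 11 in PMN and 8.35, 8.48 and 6.98 in monocytes (-3.22 ± 0.32, limma adjusted p = 5.2e-06), and the sialic acid-binding Cd33 differed by -2.84. Cd300lg was higher in monocytes (3.04). Of 10 receptors for antibody 5 were higher in PMN and 1 in monocytes (2 without PMN library 2). Fcgr4, an activating receptor, read 9.49, 7.59 and 7.68 against 5.39, 4.47 and 3.61 (-3.76 ± 0.59, limma adjusted p = 0.000151), whereas Fcgr1, the high-affinity receptor, read 3.96, 4.25 and 2.71 against 5.31, 5.42 and 7.15 (2.32 ± 0.52, limma adjusted p = 0.00193). The Fc receptors Fcrl1, Fcrla and Fcer2a of that list are B cell genes, and B cell genes were higher in PMN too, as given below.

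Of 16 complement genes 9 were higher in PMN and 3 in monocytes (median -0.73). The monocyte calls included the central component C3 (1.30) and factor B, Cfb (1.78; 1.42 with adjusted p = 0.0514 without PMN library 3). The decay regulators Cd55 and Cd46 were higher in PMN (-2.73 and -2.49). The C1q chains, made by tissue macrophages, were highest in PMN library 1: C1qa read 7.15, 4.27 and 1.61 in PMN and 1.86, 1.66 and 0.63 in monocytes. The ranges overlapped and the C1qa difference of -2.96 (limma adjusted p = 0.0196) was -1.56 with adjusted p = 0.0704 without PMN library 1 and -2.59 with 0.0602 without monocyte library 3. C1qb and C1qc (-2.88 and -2.87) were at -1.53 (0.103) and -1.40 (0.0964) without PMN library 1, and their calls were also lost without monocyte library 3 (-2.55 with 0.0682 and -2.56 with 0.0703), C1qb without PMN library 2 (-2.75, 0.059) and C1qc without monocyte library 2 (-2.86, 0.0533). The spleen macrophage list, which holds the C1q chains themselves, had a mean of 5.84 in PMN library 1. That mean was 4.81 and 3.54 in the other PMN libraries and 3.35 to 3.66 in monocytes. The C1q values enter these means, and the part of macrophages in the C1q result was not tested. The NADPH oxidase that makes superoxide was near even, 2 of 11 in each direction (median 0.26; 4 higher in monocytes without PMN library 2 and 1 without PMN library 3; 1 higher in PMN without PMN library 1, PMN library 3 or monocyte library 3). The dismutase Sod1 of that list was higher in monocytes (1.60).

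The interleukin 1 system was among the lists most shifted to PMN, with 12 of 23 higher there and 3 in monocytes (median -1.69; 8 and 0 past the 2-fold margin). Beside Il1b, Il1f9 (interleukin-36γ) read 9.85, 9.81 and 10.13 in PMN and 5.44, 5.43 and 3.26 in monocytes (-5.22 ± 0.52, limma adjusted p = 5.08e-06). Nlrp12, a regulator of inflammatory signalling, read 8.12, 8.66 and 8.84 against 3.17, 3.67 and 1.45 (-5.78 ± 0.46, limma adjusted p = 1.25e-06). Receptor chains were included: Il1rap at -3.64, the decoy Il1r2 at -3.52 and Il1rl1, the receptor for interleukin 33, at -3.47. Genes of the machinery that cleaves the cytokine stood otherwise. Casp1, the protease, read 6.49, 6.35 and 6.72 in PMN and 6.14, 5.78 and 7.23 in monocytes (-0.13; -0.56 with adjusted p = 0.0328 without monocyte library 3). Pycard, the adaptor ASC, was higher in monocytes, with 6.97, 6.94 and 6.19 against 8.08, 8.28 and 8.41 (1.56 ± 0.23, limma adjusted p = 0.000105), and Gsdmd, the pore former, did not pass (0.15). Il1r1 was below the filter on low values.

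Genes listed for myeloid-derived suppressor cells were higher in PMN in 8 of 13 cases and in monocytes in 0 (median -2.36, with 6 past the 2-fold margin). The monocyte count was 1 without monocyte library 3. Beside effectors, the PMN calls of that list include the surface genes Cd84 and Jaml and the receptor chain Il4ra. Arg2 read 7.18, 7.57 and 7.87 in PMN and 1.25, 2.20 and 0.88 in monocytes, 68.6-fold apart (-6.10 ± 0.32, limma adjusted p = 8.58e-08). Its cytosolic relative Arg1 was low and did not pass (-1.75, 1.92 and -1.95 against -3.18, -1.05 and -1.06), and Nos2 was below the filter. Cd274, the checkpoint ligand PD-L1, read 6.36, 6.85 and 5.97 in PMN and 3.63, 2.46 and 3.79 in monocytes (-3.10 ± 0.64, limma adjusted p = 0.00118). Ptgs2, the inducible cyclooxygenase, differed by -4.41 and Socs3, a feedback inhibitor of cytokine signalling, by -3.42. Tgfb1 (0.42) and Vegfa (-1.13) did not pass; Vegfa was at -1.69 with adjusted p = 0.0209 without monocyte library 2. Among 17 eicosanoid genes, 5 were higher in PMN and 1 in monocytes, a PMN share near the 27.2% over all genes. The leukotriene C4 synthase Ltc4s was at -3.46 and the prostaglandin receptor Ptger2 at -1.90. The monocyte count was 0 without PMN library 3, monocyte library 1 or monocyte library 2 and 3 without monocyte library 3.

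Immediate early genes, induced within minutes of stimulation, were higher in PMN in 15 of 20 cases and in monocytes in 2 (median -1.78; 8 and 0 past the 2-fold margin; 1 in monocytes without PMN library 1, PMN library 2, monocyte library 2 or monocyte library 3). Dusp1, a phosphatase of MAP kinases, read 9.96, 10.33 and 10.70 in PMN and 4.48, 4.31 and 6.03 in monocytes (-5.39 ± 0.44, limma adjusted p = 1.43e-06). Jun, Junb and Jund, subunits of AP-1, differed by -3.08, -2.69 and -2.84, and Zfp36, which destabilises inflammatory messages, by -2.30. Klf4, also a monocyte differentiation factor, was higher in monocytes (2.09). Apoptosis regulators gave 13 of 21 higher in PMN and 3 in monocytes (median -0.83). Mcl1, on which neutrophil survival depends, read 11.82, 11.90 and 12.08 against 10.34, 9.69 and 11.09 (-1.56 ± 0.27, limma adjusted p = 0.000303); the death receptor Fas differed by -2.43 and the initiator caspase Casp8 by 0.96.

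Of the genes of class I antigen presentation, 9 of 22 were higher in monocytes and 3 in PMN (median 0.29; -0.02 without monocyte library 3, with 8 and 5; 8 and 0 with the 6 vehicle libraries alone). The monocyte calls included chaperones of peptide loading, Canx (1.52), Calr (1.44) and Pdia3 (1.35), and the immunoproteasome subunit Psmb10 (1.67). H2-D1, a classical heavy chain, was higher in PMN (-0.74; the call was lost with the 6 vehicle libraries alone, adjusted p = 0.0766), and B2m overlapped (-0.22). For class II, 4 of 15 were higher in PMN and 1 in monocytes (median -0.62; -0.18 without PMN library 2, with 4 and 2), a PMN share near the 27.2% over all genes. H2-Aa read 9.13, 10.66 and 8.79 in PMN and 8.33, 7.97 and 10.04 in monocytes, and Cd74, the invariant chain, followed the same libraries; PMN library 2 and monocyte library 3 were the highest of their groups and the ranges overlapped. Among the PMN calls, H2-Oa (-1.64) and H2-Ob (-1.87) encode a B cell-enriched modulator of peptide loading. Ifi30, a lysosomal thiol reductase, read 7.23, 8.13 and 5.79 in PMN and 9.45, 9.16 and 9.73 in monocytes (2.40 ± 0.43, limma adjusted p = 0.000437).

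Interferon-stimulated genes were higher in PMN for 16 of 41 and in monocytes for 2 (median -0.67; 6 and 0 past the 2-fold margin). The median rested on single libraries: it was -0.06 without monocyte library 2, with 13 higher in PMN and 7 in monocytes, and -1.05 without monocyte library 3, with 22 and 1. After Ifitm1, Oasl1 read 6.09, 6.05 and 5.85 in PMN and 2.47, 1.48 and 3.29 in monocytes (-3.59 ± 0.36, limma adjusted p = 5.51e-06), and Oasl2 read 8.47, 10.03 and 9.95 against 4.36, 2.87 and 7.55 (-4.55 ± 0.92, limma adjusted p = 0.000981). The list also varied inside the monocyte group, with means of 5.34, 4.34 and 6.76 against 6.17 to 6.71 in PMN. The monocyte calls were Mx1 (2.30; 1.20 with adjusted p = 0.0583 without monocyte library 3) and Mx2 (2.10). Both calls were lost with the 6 vehicle libraries alone (adjusted p = 0.0927 for Mx1 and 0.0562 for Mx2), where 11 of 41 were higher in PMN and 0 in monocytes, and with array weights (1.57 with 0.148 and 1.42 with 0.0937). Without PMN library 3 the counts were 11 and 4. Ifitm3, a close relative of Ifitm1, read 10, 10.29 and 10.76 against 10.74, 10.11 and 11.68 and did not pass (0.49; 0.86 with adjusted p = 0.0441 without monocyte library 2).

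**Figure D5:**
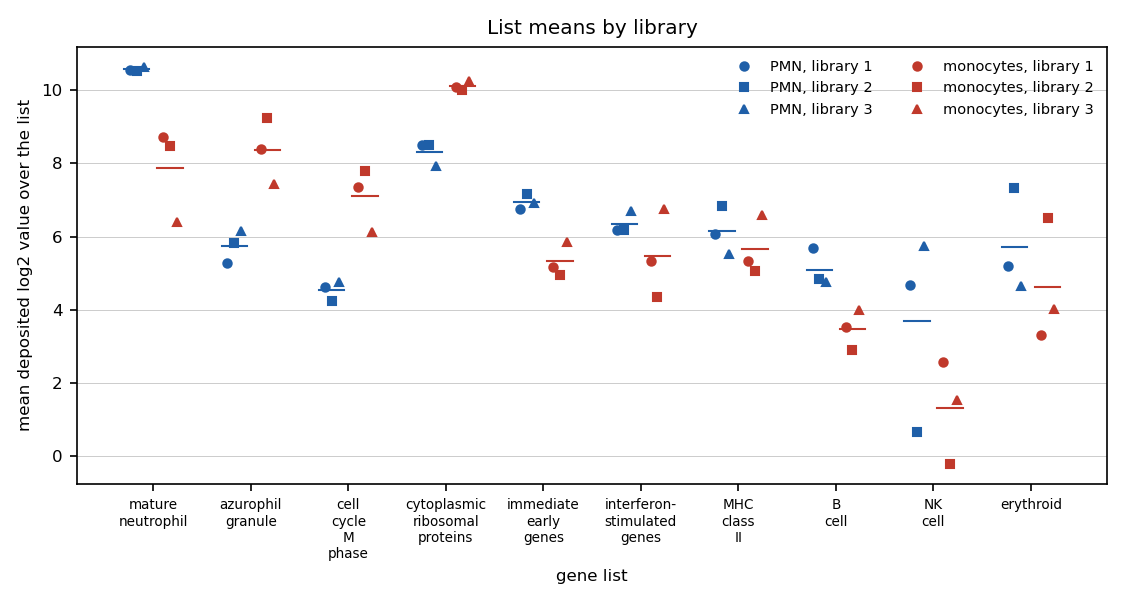
Mean deposited log2 value over the tested genes of 10 lists in each of the 3 PMN (blue) and 3 monocyte (red) libraries; symbols mark library 1, 2 and 3 and bars the group mean. Ribosomal, immediate early and mitotic means separate without overlap, while class II, interferon, NK and erythroid means overlap and vary by library.

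Several gene families were divided within themselves. Of 12 genes in the Ms4a list, encoding membrane proteins with 4 spans, 6 were higher in monocytes and 1 in PMN (median 1.65). That list also holds Tmem176a and Tmem176b, which did not pass. Ms4a6c read 7.17, 6.89 and 5.48 in PMN and 9.23, 8.45 and 10.33 in monocytes (2.82 ± 0.50, limma adjusted p = 0.00041), and the PMN call was Ms4a1, the B cell antigen CD20 (-2.30). Schlafen genes, linked to growth arrest of lymphoid and myeloid cells, parted by member: Slfn4 (-3.57), Slfn1 (-2.83) and Slfn2 (-1.41) were higher in PMN and Slfn9 (1.55) in monocytes. Among 17 S100 and annexin genes 5 were higher in monocytes, among them S100a10 (2.52) and S100a1 (2.06), and 4 in PMN, among them S100a11 (-1.60) and S100a6 (-1.43). Lysosomal genes gave 10 of 26 higher in monocytes and 6 in PMN (median 0.58). The proteases Ctsc (2.38) and Ctss (1.87) and the sterol carrier Npc2 (1.93) were higher in monocytes and the aspartic protease Ctsd (-1.75) in PMN. In the stefin A family of protease inhibitors, Stfa2l1 read 9.65, 8.53 and 8.53 in PMN and 6.12, 5.09 and 0.48 in monocytes (-5.01 ± 1.27, limma adjusted p = 0.00448), but these copies are so alike that reads may be split among them. By symbol stem the most PMN-shifted family was that of the semaphorins, with 7 of 10 Sema genes higher in PMN and 0 in monocytes. Sema7a read 4.04, 4.44 and 5.05 in PMN and -0.63, -0.86 and -0.32 in monocytes (-5.11 ± 0.47, limma adjusted p = 2.78e-06), and Sema6b differed by -3.54. Of 15 genes with the stem Kdm, mostly histone demethylases, 10 were higher in PMN and 2 in monocytes, with Kdm5b at -2.56. Proteins that shape the neutrophil nucleus and its chromatin gave 5 of 12 higher in monocytes and 2 in PMN (median 0.92). Padi4, which citrullinates histones, and the lamin B receptor Lbr were higher in PMN (-1.88 and -0.99), and the histones H1f0 (2.42) and H2afz (2.03) and the lamin Lmnb2 (2.04) in monocytes.

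Lineage transcription factors followed their lineage only in part. Of 20 factors of monocytes and dendritic cells 3 were higher in monocytes and 6 in PMN (median 0.28; -0.39 without monocyte library 3 and -0.33 without PMN library 3). Irf8, which directs progenitors to monocytes, read 5.80, 5.77 and 5.35 in PMN and 7.08, 6.49 and 8.27 in monocytes (1.64 ± 0.36, limma adjusted p = 0.00171), and Irf5 differed by 1.42. Without monocyte library 2 the number higher in monocytes was 5. Spi1, which encodes PU.1 and acts in both lineages, was higher in PMN, with 9.50, 9.82 and 9.71 against 8.98, 8.96 and 8.97 (-0.71 ± 0.10, limma adjusted p = 7.64e-05). Klf2, a regulator of quiescence, differed by -1.86. Of 21 factors of granulocytes 10 were higher in PMN and 3 in monocytes (median -0.92; 5 in monocytes without monocyte library 3 and 1 without monocyte library 2). Mxd1, a MYC antagonist, read 11.57, 11.19 and 11.46 in PMN and 8.61, 8.49 and 5.70 in monocytes (-3.80 ± 0.64, limma adjusted p = 0.000271). Cebpa, needed at the progenitor stage, was higher in monocytes (1.70 ± 0.34), while Cebpe, which drives specific granule genes, read 8.11, 7.24 and 8.14 against 9.58, 9.89 and 6.70 and passed only without monocyte library 3 (0.89 with adjusted p = 0.241; 1.91 and 0.000371 without it). Cebpb did not differ beyond its spread (0.04).

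Iron genes gave 6 of 18 higher in PMN, a share near the 27.2% over all genes, and 3 in monocytes (median -0.73). The PMN count was 10 without monocyte library 3 and 4 with the 6 vehicle libraries alone. After Steap4, the exporter ferroportin, Slc40a1, read 9.91, 9.60 and 10.18 in PMN and 7.10, 7.51 and 4.77 in monocytes (-3.43 ± 0.58, limma adjusted p = 0.000272), and ferritin heavy chain Fth1 differed by -1.39. For the pathway that GS9820 targets, 7 of 20 genes were higher in PMN and 2 in monocytes (median -0.36; 1 in monocytes without PMN library 2, PMN library 3 or monocyte library 3). Pik3cd, which encodes p110δ, read 8.74, 8.92 and 9.11 in PMN and 8.24, 8.06 and 9.01 in monocytes. The ranges overlapped and the difference of -0.49 ± 0.22 did not pass (limma adjusted p = 0.0702; -0.77 and 0.00157 without monocyte library 3). Rptor, a subunit of mTORC1, was higher in monocytes (1.29 ± 0.13).

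Markers of other spleen cells were mostly higher in PMN where they differed. Over all genes 27.2% were higher in PMN. In the main fit the T cell, erythroid, plasma cell, eosinophil and mast cell lists were below that share and the dendritic cell list near it. Of 15 B cell genes 12 were higher in PMN and 0 in monocytes (median -1.66), with list means of 4.77 to 5.68 in PMN and 2.90 to 3.99 in monocytes. Cd22 read 6.74, 6.37 and 5.02 in PMN and 3.75, 2.73 and 3.97 in monocytes (-2.55 ± 0.47, limma adjusted p = 0.00054), while Igkc overlapped (12.27, 10.23 and 10.52 against 11.59, 8.83 and 10.30; -1.44 with adjusted p = 0.0463 without monocyte library 1). NK cell genes gave 5 of 14 higher in PMN, a count of 13 without PMN library 2, 9 without monocyte library 1 and 0 without PMN library 1, PMN library 3 or monocyte library 2; Gzma read 6.86, 1.82 and 7.93 in PMN and 3.52, 0.50 and 2.25 in monocytes, with overlap. T cell genes gave 1 of 18 (5 without monocyte library 1, 0 without monocyte library 2), erythroid genes 0 of 11 (4 without monocyte library 2), plasma cell genes 2 of 9 (1 without PMN library 1, monocyte library 2 or monocyte library 3), dendritic cell genes 4 of 13 and platelet genes 4 of 6, all higher in PMN. Eosinophil genes gave 2 of 9, Siglecf (-3.16) and Ccr3, with 5 without PMN library 1 and 4 without monocyte library 2. Macrophage genes gave 6 of 14 higher in PMN and 1 in monocytes, and 2 higher in PMN without PMN library 1. Progenitor genes gave 2 of 9 higher in monocytes (1 without PMN library 2 or monocyte library 3). Mast cell, stromal and epithelial genes gave 1 of 5 (2 without PMN library 1), 3 of 6 and 2 of 3 (1 without any single library) higher in PMN. The mast cell call in the main fit was Hdc (-3.22), while Kit (-0.70), Prss34 (-0.42), Mcpt8 (1.24) and Ms4a2 (0.92) did not pass. The part of other spleen cells in the differences above was not tested.

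The same contrast in GS9820-treated mice, in libraries that share no sample with the vehicle contrast, gave 9725 of 13968 genes past the threshold (69.6%), 5248 (37.6%) higher in monocytes and 4477 (32.1%) higher in PMN. The calls that both contrasts share in direction number 7928, which is 94.5% of the vehicle calls and 81.5% of the treated calls; 1 gene was called in opposite directions. Steap4 differed by -8.13 in vehicle and -8.04 in treated mice, Il1b by -6.76 and -5.98, Csf3r by -3.73 and -3.73, F13a1 by 6.22 and 5.85 and Elane by 5.56 and 5.71. Vehicle calls that did not pass in treated mice included C1qa (-1.85, limma adjusted p = 0.0681), C1qb (-1.19, 0.231), C1qc (-1.75, 0.0886) and Cd36 (-0.79, 0.24). The medians of the ribosomal list were 1.85 and 1.99 and those of the mitotic list 2.75 and 2.20. The difference of the 2 contrasts passed the limma threshold for 0 genes (0.0%), with 269 genes at an unadjusted p under 0.05. Csf1r, not called in vehicle mice, was higher in treated monocytes by 1.46 (limma adjusted p = 0.00268), and the difference between the contrasts, 0.70, did not pass (adjusted p = 1.0).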

How the data were processed

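RNA from sorted spleen cells was sequenced by the authors, who deposited log2 expression values per gene, named log2 RPKM in the file headers. TopHat2, STAR and limma were used with assembly mm10, per the submitters' processing notes; versions and settings are not given in the sources used here. Per the labels' protocols libraries came from either of 2 makers' kits, and which kit served which library is not given, nor is strand use in counting. Sorted values differed between the 14 libraries by a median of 0.00363 and unlogged sums were 1429080 to 1430327, so the scale is not that of RPKM and no count test was run.

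Symbols came from GENCODE M21 (13886 of 14131 genes). X- and Y-linked genes are not analysed here. Some list members are counted but not reported by name here. Genes at 0 or more in at least 3 of 14 libraries (13968) were fitted with limma 3.58.1 in R 4.3.3 (4 groups, moderated by eBayes with a mean trend, tests two-sided), with Benjamini-Hochberg adjustment over all of them and a threshold of 0.05; treat used a 2-fold margin. The fit was tested on simulated data. Il1r1, Nos2, C6, Epor and Adgrg1 fell below the filter.

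The libraries, the 57 gene lists (44 by role, 13 for other cells) and the comparisons were chosen with earlier results of these data known, so lists have counts and medians and no test. Named genes are the 15 largest called differences in each direction with the higher group mean at least 1 (no unnamed models or small RNAs), and from each list up to 6 called members a direction and up to 3 uncalled of highest mean (lists up to 14 whole; up to 4 from other-cell lists and symbol stems), plus markers and Pik3cd; Ly6c1 is added as the near copy of Ly6c2. Alternatives were other filters, pseudocount, scalings, eBayes settings, array weights, the 6 libraries alone, treat, a replicate block and each vehicle library left out.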

Additional observations from a re-analysis of the deposited data

How the results depend on the processing

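The counts of genes higher in monocytes (4586) and in PMN (3804) stayed within 1.5 times of these values under every alternative run but 1. Against the 2-fold margin they were 795 and 901, and the treated contrast gave 2561 genes in place of 9725. Leaving out each vehicle library in turn gave 4150 to 4390 genes higher in monocytes and 3335 to 3885 higher in PMN. The 6 vehicle libraries alone kept 6183 of the 8390 calls (73.7%). In that fit the calls of Ly6g (adjusted p = 0.108), Chil3 (0.096), mt-Co3 (0.0833), C1qa (0.11), C1qb (0.123), C1qc (0.123) and Gzma (0.132) were also lost, and list counts were lower by over 1.5 times for, among others, NK cell genes (0 in PMN), macrophage genes (2 in PMN), Toll-like receptors (0 in monocytes), C-type lectins (1 in monocytes), nonclassical monocyte genes (0 and 2) and cholesterol synthesis (0 in monocytes). Array weights ended the calls of Pfkfb3 (-0.64, adjusted p = 0.0608), Itgb7 (1.36, 0.0724), Il1r2 (-3.02, 0.0695), Fcer2a (-1.60, 0.0976), Cfb (1.49, 0.132), Gpr183 (1.07, 0.159), Chil3 (0.64, 0.27), Ly6g (-2.31, 0.0608) and mt-Co3 (0.75, 0.0942). The labels number the libraries without saying whether same-numbered ones came from the same mice, and the main fit did not pair them. Same-numbered libraries had correlated deviations of 0.457, 0.277 and 0.085, the third below 0.1. Different-numbered libraries had -0.352 to -0.0, and a shared origin was not tested. With a replicate block 4484 and 3930 genes passed, and 7952 of the 8390 calls (94.8%) were kept; each library correlated best with its own number. Of 385 named genes past the threshold, 293 kept their call under every alternative except the 2-fold margin and 92 lost it at least once. Against the 2-fold margin 208 of the 385 did not pass. The only reversal among named genes was Xbp1, not called at -0.06 but higher in monocytes without PMN library 2 (0.55); it was at -0.49 without PMN library 3. The medians of 10 of the 57 lists changed sign in some alternative, among them class I presentation, nonclassical monocyte, Schlafen and monocyte transcription factor lists. Array weights did not converge fully. With 3 libraries a group and unknown depth, small differences of low genes may not have been detectable.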
